A study of Mus musculus with 16 samples.

Results

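The lines OSE #T8 and OSE #T9 are 2 clones of mouse induced pluripotent stem (iPS) cells made with one set of factors, and they were compared with each other. The comparison rests on the 4 of 16 arrays whose titles name these lines, 2 for each clone. Both clones were hybridised on the same 2 slides, one array of each clone on each slide.

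The series measured total RNA of R1 mouse embryonic stem (ES) cells, 5 iPS lines and 2 types of mouse embryonic fibroblast (MEF) on Illumina MouseWG-6 BeadChip arrays, 2 arrays in each group. The lines OSE #T8 and OSE #T9 carry the letters O, S and E, which usually stand for Oct4 (Pou5f1), Sox2 and Esrrb. The labels do not spell the letters out. The other lines are OSCK, OSCE #8 and OSCE #13, and the MEFs carry a green fluorescent protein (GFP) gene under the Actin or the Pou5f1 promoter. ES and iPS cells of all lines grew on MEF feeders that had been treated with mitomycin C, in medium with 15% serum and 1000 units/ml of LIF, so the RNA of every pluripotent group can hold feeder RNA. No drug or other treatment separates the clones. Each line is 1 clone, and the labels call its 2 arrays biological replicates without saying more, so the spread between arrays covers variation within a clone and the comparison is between these 2 clones.

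Induced pluripotent cells arise when introduced transcription factors switch the network of Pou5f1, Sox2 and Nanog back on in a differentiated cell. Esrrb, an orphan nuclear receptor, is a member of that network in mouse cells. Pluripotent cells in serum and LIF are known to move between a naive state, close to the inner cell mass, and states closer to the epiblast, in which Nodal, FGF and Wnt signals open the way to the primitive streak, the source of mesoderm and endoderm.

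Between 35.95% and 37.37% of probes were above background on the 4 arrays, where a probe counts as detected at a detection p under 0.01, and the median probe was read from 34 to 37 beads. Across 15642 genes the replicates correlated at r = 0.9938 in OSE #T8 and 0.9892 in OSE #T9, and arrays of different clones at 0.9805 to 0.9874; genes are not independent replicates. Values are log2 normalized intensities, differences are OSE #T8 minus OSE #T9, and errors are standard errors (SE) of a limma fit over all 16 arrays. A gene is called at an adjusted p under 0.05 (Benjamini-Hochberg over all genes tested).

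All 4 arrays carried the pluripotency genes that define the labelled cell type. Pou5f1 read 12.01 and 11.96 in OSE #T8 and 11.68 and 11.37 in OSE #T9, against 11.48 in ES cells. Nanog read 11.45 and 11.11 in OSE #T8 and 11.40 on both OSE #T9 arrays. The Pou5f1 arrays do not overlap between the clones and the Nanog arrays do, and neither gene was called, with differences of 0.46 ± 0.16 (adjusted p = 0.077) and -0.12 ± 0.14 (adjusted p = 0.66). Of 2 further Nanog probes, one differed by 0.44 in favour of OSE #T8 (adjusted p = 0.031 in the limma fit per probe) and one by -0.04. Esrrb differed by 0.34 ± 0.11 (adjusted p = 0.058), Sox2 by 0.44 ± 0.15 (adjusted p = 0.062), Klf4 by 0.38 ± 0.18 (adjusted p = 0.19), Myc by 0.12 ± 0.18 (adjusted p = 0.73) and Zfp42, a marker of the naive state, by -0.30 ± 0.17 (adjusted p = 0.29). No reprogramming factor passed the test on its brightest probe. Of 16 alternative settings 8 called Esrrb, 6 called Pou5f1, 5 called Sox2 and 1 called Klf4, each higher in OSE #T8. Further Klf4 probes differed by 0.67 (adjusted p = 0.021 in the limma fit per probe) and by 0.25, not called. Further probes of Pou5f1, Sox2 and Esrrb were not called. The probes cannot separate transcripts of the introduced genes from those of the cells' own genes.

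Of the 15642 genes tested, 1953 (12.5%) differed between the clones: 844 (5.4%) were higher in OSE #T8 and 1109 (7.09%) in OSE #T9. At least 2-fold differences made up 261 of them (1.67% of genes tested), 118 higher in OSE #T8 and 143 in OSE #T9. The median difference of the called genes was 1.54-fold, and the largest were 9.60-fold in favour of OSE #T8 and 6.36-fold in favour of OSE #T9. All 1953 called genes had the same sign on both slides, and in none did the arrays of the clones overlap, which held for 47.7% of all genes tested. With the slide as a block, 2868 genes were called, among them all 1953. The count rests on the spread shared by all groups: a fit to the 4 arrays alone called 508 genes, and leaving out the second array of OSE #T8 or of OSE #T9 left 961 and 1192. Without the first OSE #T9 array, 392 genes were called with at least 2-fold. In the authors' normalized table, tested per probe, 1514 probes were higher in OSE #T8 and 1195 in OSE #T9, a balance opposite to that of the genes above.

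The genes that were higher in OSE #T8 included regulators of the primitive streak and signals of the epiblast. The list of mesoderm and primitive streak genes had 22 members tested. Of these, 9 were higher in OSE #T8, 2 in OSE #T9 and 11 were not called. The share called was 50% against 12.5% of all genes, and the median difference 0.165 against 0.00539. OSE #T8 had the highest mean of the pluripotent groups in 1 of the 11 called members. The summed signal of the 22 genes was 3804.4 and 3636.7 in OSE #T8 and 3424.3 and 3062.1 in OSE #T9. It was 2801.5 and 3096.4 in ES cells, 4048.9 and 4475.9 in OSCE #13, 5533.6 and 6056.3 in OSCK and 8522.8 and 8678.6 in OSCE #8. Of the 15 genes of the epiblast and primed state, 12 (80%) were higher in OSE #T8, none in OSE #T9, and the median was 0.82. The 3 that were not called, Sfrp2, Fgf15 and Fst, differed by 0.53 to 0.58. Among the 12 called, OSE #T8 had the highest mean of the pluripotent groups in 3 (25%), against 49.4% of all genes called higher in OSE #T8. In bulk RNA, more cells in such a state and more RNA per cell cannot be told apart.

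The promoters of 3 of the 9 called streak genes are shown because these genes have the largest differences of the list: T (Brachyury), the T-box factor of the early streak and a known Wnt target, Gsc (goosecoid), a homeobox factor of the organizer, and Lhx1, a LIM homeobox factor of the anterior streak. Each is a 300-base window around the annotated start from RefSeq (GRCm38.p6), written 5′ to 3′ on the gene's strand, with capitals for a match to the TCF/LEF word, CTTTG followed by AA, AT, TA or TT, on either strand. The windows lie at chr17:8434173-8434472 (plus strand) for T, chr12:104473187-104473486 (minus strand) for Gsc and chr11:84525485-84525784 (minus strand) for Lhx1.
T: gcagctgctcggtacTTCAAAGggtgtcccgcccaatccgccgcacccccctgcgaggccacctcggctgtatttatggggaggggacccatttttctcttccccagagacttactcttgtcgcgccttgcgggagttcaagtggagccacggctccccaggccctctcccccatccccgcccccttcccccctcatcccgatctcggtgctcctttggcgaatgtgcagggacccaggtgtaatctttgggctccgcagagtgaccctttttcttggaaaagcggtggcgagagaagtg
Gsc: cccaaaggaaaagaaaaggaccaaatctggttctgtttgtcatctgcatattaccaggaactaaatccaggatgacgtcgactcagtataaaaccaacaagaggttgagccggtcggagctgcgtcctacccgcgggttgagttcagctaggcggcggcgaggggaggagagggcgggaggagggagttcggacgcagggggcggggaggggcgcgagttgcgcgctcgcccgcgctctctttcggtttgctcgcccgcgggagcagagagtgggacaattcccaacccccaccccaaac
Lhx1: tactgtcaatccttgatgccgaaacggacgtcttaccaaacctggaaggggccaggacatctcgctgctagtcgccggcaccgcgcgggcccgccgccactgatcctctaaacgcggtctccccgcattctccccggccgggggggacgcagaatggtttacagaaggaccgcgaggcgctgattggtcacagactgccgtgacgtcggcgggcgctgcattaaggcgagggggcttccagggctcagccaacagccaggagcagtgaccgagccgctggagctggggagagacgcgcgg
Promoters were found for 5 of the 9 genes (Cer1, Evx1, Gsc, Lhx1 and T). Only the T window of these 5 held this word, as its reverse complement at base 16, and 16.9% of the 32851 promoters in the table hold one. The T-box word AGGTGTGA, on either strand, was in none of the 5 and in 1.28% of all promoters. A match describes these letters and does not show a bound site.

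T read 8.44 and 8.51 in OSE #T8 and 6.04 and 6.06 in OSE #T9. The 2 pairs lie far apart, and the difference was 2.42 ± 0.14 (5.35-fold, adjusted p = 8.7e-08). T was at 4.71 in ES cells, 7.11 in OSCE #13 and 11.75 in OSCE #8, so both OSE clones lay above ES cells and below OSCE #8.

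Gsc read 7.91 and 7.73 in OSE #T8 and 5.94 and 5.29 in OSE #T9, a difference of 2.20 ± 0.17 (adjusted p = 1.5e-06). Lhx1 read 6.91 and 6.58 in OSE #T8 and 4.63 and 4.48 in OSE #T9, where no array was above background. Such a gene has only a bound on its fold, the OSE #T8 mean against the higher of its own OSE #T9 level and the dimmest detected probe of each array, and Lhx1 was at least 3.44-fold higher in OSE #T8 (adjusted p = 1.7e-07). A second Lhx1 probe differed by 1.07 in the same direction.

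Secreted factors of the same stage followed. Wnt8a, a Wnt ligand of the early streak, read 7.24 and 7.22 in OSE #T8 and 5.19 and 5.36 in OSE #T9 (1.96 ± 0.12, adjusted p = 1.1e-07), and its second probe differed by 1.51. Cer1, a secreted inhibitor of Nodal, BMP and Wnt, read 6.05 and 6.08 in OSE #T8 and was at background on both OSE #T9 arrays, at least 2.14-fold lower. It stood between 4.41 and 4.57 in all other groups, and OSE #T8 had the highest mean of all groups for this gene. Fgf8, an FGF ligand of the streak, read 5.93 and 6.28 in OSE #T8 and was at background in OSE #T9, at least 2.2-fold lower. Fgf5, the FGF ligand that marks the epiblast after implantation, read 7.56 and 7.63 in OSE #T8 against 6.04 and 5.96 in OSE #T9 (1.6 ± 0.16, adjusted p = 1.8e-05). The arrays of the clones do not overlap in these 4 genes, which holds for all 1953 called genes.

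Genes of the Nodal branch lay on both sides. Nodal, the TGF-beta family ligand that maintains the epiblast and patterns the streak, read 10.45 and 10.29 in OSE #T8 and 9.37 and 8.90 in OSE #T9 (1.23 ± 0.14, adjusted p = 6.2e-05). Lefty1, a secreted Nodal inhibitor and Nodal target, read 11.29 and 11.26 against 9.73 and 9.35 (1.74 ± 0.15, adjusted p = 4.6e-06). In both cases OSE #T8 lay close to ES cells (10.25 and 11.08) and OSE #T9 below it. Of the 18 genes of the Nodal and TGF-beta list, 4 were higher in OSE #T8, among them Lefty1, Cer1 and Nodal, and 4 in OSE #T9 (Ccn2, Tgfb1, Ltbp1 and Tgfb2). That is 44.4% called, against 12.5% of all genes. The inhibitor Lefty2 differed by -0.01 and the co-receptor Tdgf1 by 0.35, neither called.

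**Figure D1:**
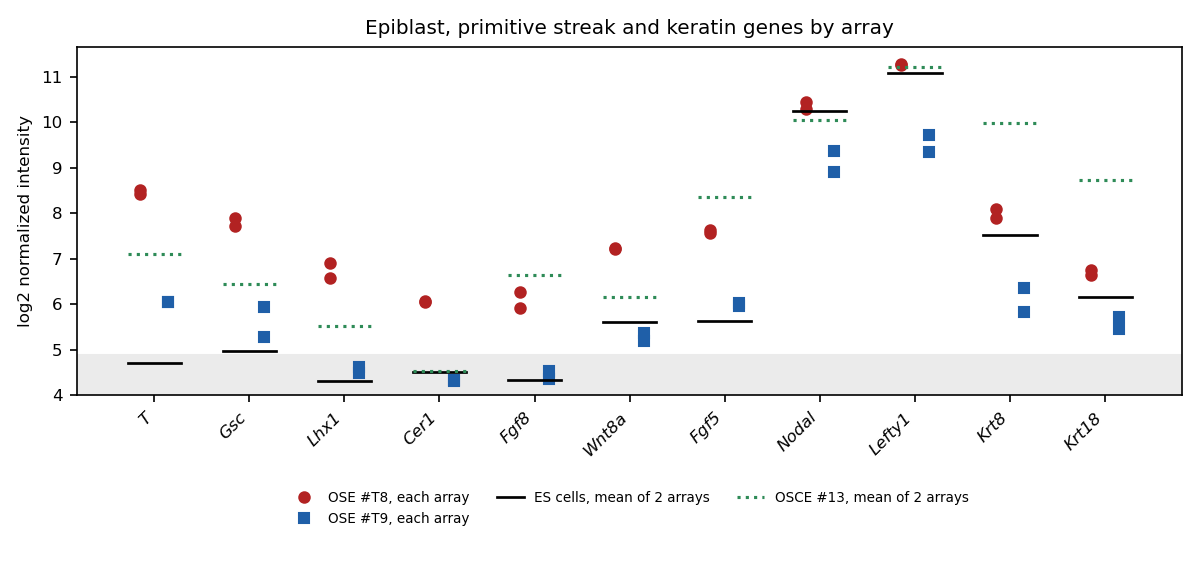
Log2 normalized intensity of 11 epiblast, primitive streak and keratin genes. Circles are the 2 OSE #T8 arrays, squares the 2 OSE #T9 arrays, solid lines the ES mean and dotted lines the OSCE #13 mean (2 arrays each); the grey band lies below the dimmest probe detected on any array. All 11 genes were called higher in OSE #T8, and in every called gene the arrays of the clones do not overlap. OSE #T8 is near ES cells for Nodal (10.25) and Lefty1 (11.08) but above them for T (4.71).

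Other signalling lists also held calls in both directions, at 27.3% to 53.8% of their members against 12.5% of all genes, and differences between lists were not tested. Among 16 Wnt targets 4 were higher in OSE #T8 (T, Lef1, Cdx2 and Cdx1) and 2 in OSE #T9 (Nkd2 and Notum), and Axin2, a feedback inhibitor used as a general Wnt readout, differed by -0.12 and was not called. The 2 Notum probes differed in opposite directions. Among 13 BMP targets and Id genes 4 were higher in OSE #T8, with Hhex at 0.86 ± 0.15, Bmp7 at least 1.68-fold, Id2 at 0.83 ± 0.14 (0.28 for a second probe, not called) and Id3 at 0.67 ± 0.17, and 3 in OSE #T9, among them the receptor Bmpr2 at -0.68 ± 0.18. Id1, another direct BMP target, differed by 0.01. Of 22 FGF and ERK genes 4 were higher in OSE #T8 (Fgf8, Fgf5, Etv1 and Fos) and 2 in OSE #T9 (Etv4 and Dusp5). Of 18 LIF and STAT3 genes 4 were higher in OSE #T8, all negative regulators or kinases of cytokine signalling (Cish, Socs2, Pim3 and Jak1), and the receptor gene Osmr was higher in OSE #T9. Both Socs2 and Jak1 have a second probe that pointed the other way, at -0.51 and -0.64.

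Among 39 pluripotency genes, 12 were higher in OSE #T8, 1 in OSE #T9 (Trh, a neuropeptide precursor) and 26 were not called. The share called was 33.3% against 12.5% of all genes, and the median was 0.221. Besides Lefty1 and Nodal, the largest were Tbx3, Eras and Sall4. Tbx3, a T-box factor of naive cells, read 8.11 and 8.37 in OSE #T8 and 7.12 and 7.02 in OSE #T9 (1.17 ± 0.11). Eras, an ES cell Ras protein that promotes growth, read 9.84 and 9.79 against 8.69 and 8.64 (1.15 ± 0.10). Sall4, a zinc finger partner of Pou5f1, read 9.97 and 9.90 against 9.03 and 8.68 (1.08 ± 0.13). The adjusted p of these 3 genes ran from 3.8e-06 to 0.0001. Of 2 further, dimmer Sall4 probes, one differed by -0.006 and one by 0.82. The summed normalized signal of the 39 genes nevertheless lay close together, at 69845 and 67440 in OSE #T8 and 66108 and 61429 in OSE #T9, against 75445 and 79549 in ES cells and 6052.1 to 10667 in MEFs.

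Genes of epithelial organisation were also higher in OSE #T8. Of 27 members of the epithelial junction list, 8 were higher in OSE #T8, none in OSE #T9, and the median was 0.202. That is 29.6% called, against 12.5% of all genes. Krt8, a keratin of simple epithelia, read 7.89 and 8.10 in OSE #T8 and 6.36 and 5.83 in OSE #T9 (1.90 ± 0.17, adjusted p = 4.2e-06), and its partner Krt18 differed by 1.1 ± 0.12. Grhl2, a transcription factor of epithelial junction genes, read 8.62 and 8.72 against 7.69 and 7.54. Rab25, a small GTPase of epithelial vesicle transport, differed by 0.87 ± 0.15, and Cldn4, a tight junction claudin, by 0.76 ± 0.15. In 6 of the 8 called members OSE #T9 had the lowest mean of the 6 pluripotent groups, compared with 39.8% of all genes called higher in OSE #T8. Cdh1, the adhesion molecule E-cadherin, differed by -0.19 and was not called.

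Lists of extraembryonic genes overlapped with these. Of 19 trophectoderm genes 7 were higher in OSE #T8, among them Krt8, Krt18 and Cldn4 of the junction list, and further Sct, the secretin precursor, at 1.03 ± 0.18 and the T-box factor Eomes at 0.59 ± 0.16; only Gata2 was higher in OSE #T9. Gata3 (-0.15) and Tead4 (-0.17) were not called. Of 23 primitive endoderm genes 6 were higher in OSE #T8 and 4 in OSE #T9. The shares called were 42.1% of trophectoderm and 43.5% of primitive endoderm genes, against 12.5% of all genes. The transcription factors Gata6 and Sox17 were among those higher in OSE #T8. Gata6 read 6.47 and 6.24 against 5.70 and 5.34 (0.83 ± 0.14), and Sox17 was detected on 1 OSE #T8 array, at 4.98 and 5.39 against 4.22 and 4.16. The basement membrane gene Col4a1 and the protease gene Plat were higher in OSE #T9, at -0.82 ± 0.12 and -0.73 ± 0.11, and both are on chromosome 8.

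Genes of the contractile apparatus were higher in OSE #T9. Of 18 smooth muscle and contractile genes, 9 were higher in OSE #T9, none in OSE #T8, and the median was -0.513. That is 50% called, against 12.5% of all genes. In all 9 OSE #T8 had the lowest mean of the 6 pluripotent groups, while this held for 50.9% of all genes called higher in OSE #T9. Cald1, caldesmon, an actin-binding regulator of contraction, read 6.38 and 6.15 in OSE #T8 and 7.97 and 8.55 in OSE #T9 (-1.99 ± 0.25, adjusted p = 9.6e-05), with 7.79 in ES cells and 8.27 in OSCE #13. Of the other Cald1 probes one differed by -0.88 and one, dimmer and not called, by -0.09. Tpm1, a tropomyosin of actin filaments, read 9.93 and 9.96 in OSE #T8 against 11.25 and 11.33 in OSE #T9 (-1.35 ± 0.14). Csrp1, a LIM protein of smooth muscle, differed by -1.43 ± 0.13, Vcl, the focal adhesion protein vinculin, by -1.27 ± 0.18, and Cnn2, a calponin, by -1.23 ± 0.11. The summed signal of the 18 genes was 15954 and 16404 in OSE #T8 and 29821 and 27322 in OSE #T9. It ranged from 22712 to 33681 in ES cells and the other 3 lines and from 59095 to 64151 in MEFs, so OSE #T8 was the lower clone and OSE #T9 lay within the other pluripotent groups.

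Matrix genes went both ways. Of 59 fibroblast and matrix genes, 20 were higher in OSE #T9, 7 in OSE #T8 and 32 were not called. The share called was 45.8% against 12.5% of all genes, and the median was -0.273. Thbs1, the matricellular protein thrombospondin, read 6.94 and 6.76 in OSE #T8 and 8.63 and 8.59 in OSE #T9 (-1.76 ± 0.15, adjusted p = 3.1e-06). Lox, the enzyme that crosslinks collagen, read 12.05 and 12.24 against 13.39 and 13.40 (-1.25 ± 0.12). Ccn2, a TGF-beta and YAP target, differed by -1.24 ± 0.16, Col5a2, a fibrillar collagen chain, by -1.36 ± 0.23, and Ogn, a small leucine-rich proteoglycan, by -1.33 ± 0.15 (-0.33 for a second, dimmer probe, not called). Like every called gene, these 5 had the same sign on both slides.

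Decorin went the other way. Dcn, the proteoglycan that is among the most used fibroblast markers, read 10.07 and 10.25 in OSE #T8 and 8.95 and 8.75 in OSE #T9 (1.31 ± 0.15, adjusted p = 4.7e-05), and 2 other well-detected Dcn probes differed by 1.22 and 1.29. Both clones lay above ES cells (7.26) and OSCE #13 (6.66) and below the MEFs (11.90 and 11.84). Pdgfra, the receptor of PDGF in mesenchyme, was also higher in OSE #T8, by 0.61 ± 0.14. A second, dimmer Pdgfra probe differed by -0.08 and was not called, and the Pdgfra call was lost when probes were averaged.

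**Figure D2:**
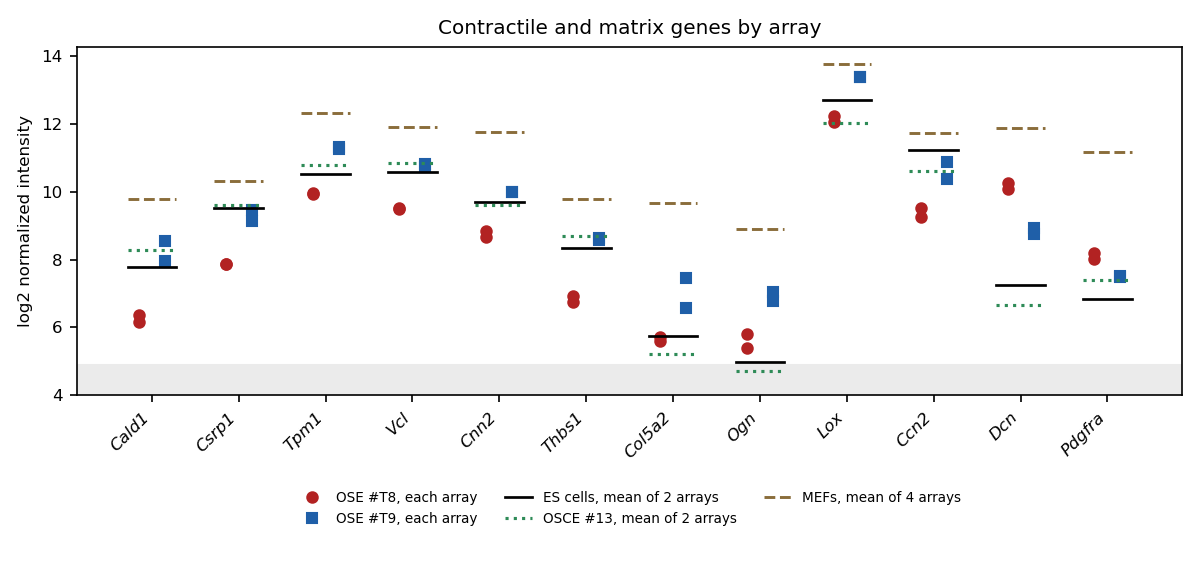
Log2 normalized intensity of 12 contractile and matrix genes, with circles for the 2 OSE #T8 arrays, squares for the 2 OSE #T9 arrays and lines for the means of ES cells, OSCE #13 and all 4 MEF arrays; the grey band lies below the dimmest probe detected on any array. OSE #T8 lies below OSE #T9 in 10 genes and above it in Dcn and Pdgfra, and the MEF mean is above both clones in all 12.

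The summed signal of the fibroblast and matrix list restates its members on the same arrays, with more weight on bright genes. The summed signal of the 59 fibroblast and matrix genes was 80434 and 78975 in OSE #T8 and 112140 and 101290 in OSE #T9, against 74484 to 92203 in ES cells and the other lines and 223300 to 231430 in MEFs, and 57 to 58 of the 59 were detected on each OSE array. Of 7 defining fibroblast markers, Pdgfrb was higher in OSE #T9 (-0.73 ± 0.13) and Dcn in OSE #T8, while Col1a1 (-0.56), Col1a2 (-0.27), Col3a1 (-0.18), Thy1 (-0.12) and Twist1 (0.01) were not called. Of the 451 genes that were at least 4-fold higher in MEFs than in ES cells, 112 were higher in OSE #T9 and 31 in OSE #T8, with a median of -0.134. Of the 491 genes at least 4-fold higher in ES cells, 121 were higher in OSE #T8 and 44 in OSE #T9, with a median of 0.187. The shares called were 31.7% of the MEF-high genes and 33.6% of the ES-high genes, against 12.5% of all genes. MEF-high genes made up 18.2% of the genes at least 2-fold higher in OSE #T9, against 2.88% of all genes tested, and ES-high genes 25.4% of those at least 2-fold higher in OSE #T8, against 3.14%. The part of feeder cells in the result was not tested.

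Macrophage genes were few. Lyz2, the lysozyme of myeloid cells, read 6.83 and 6.79 in OSE #T8 and 8.94 and 8.79 in OSE #T9 (-2.06 ± 0.16, adjusted p = 1.3e-06), and Adgre1, the macrophage surface protein F4/80, was at background in OSE #T8 and at least 2.34-fold higher in OSE #T9. Of the 24 blood and macrophage genes 4 were higher in OSE #T9 (also Fcgr3 and C1qc) and 1 in OSE #T8 (Hba-a1, a globin). That is 20.8% called, against 12.5% of all genes. Of the defining macrophage markers Csf1r was at background on all 4 arrays, C1qb was detected on 1 OSE #T9 array, Cd68 differed by -0.03 and Ptprc did not pass the filter on dim probes. The summed signal was 3238.5 and 3558.9 in OSE #T8, 3743.3 and 3648.4 in OSE #T9, 15336 and 15794 in Actin-GFP MEFs and 4535 and 4605.2 in Pou5f1-GFP MEFs. The part of macrophages among the feeders was not tested.

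**Figure D3:**
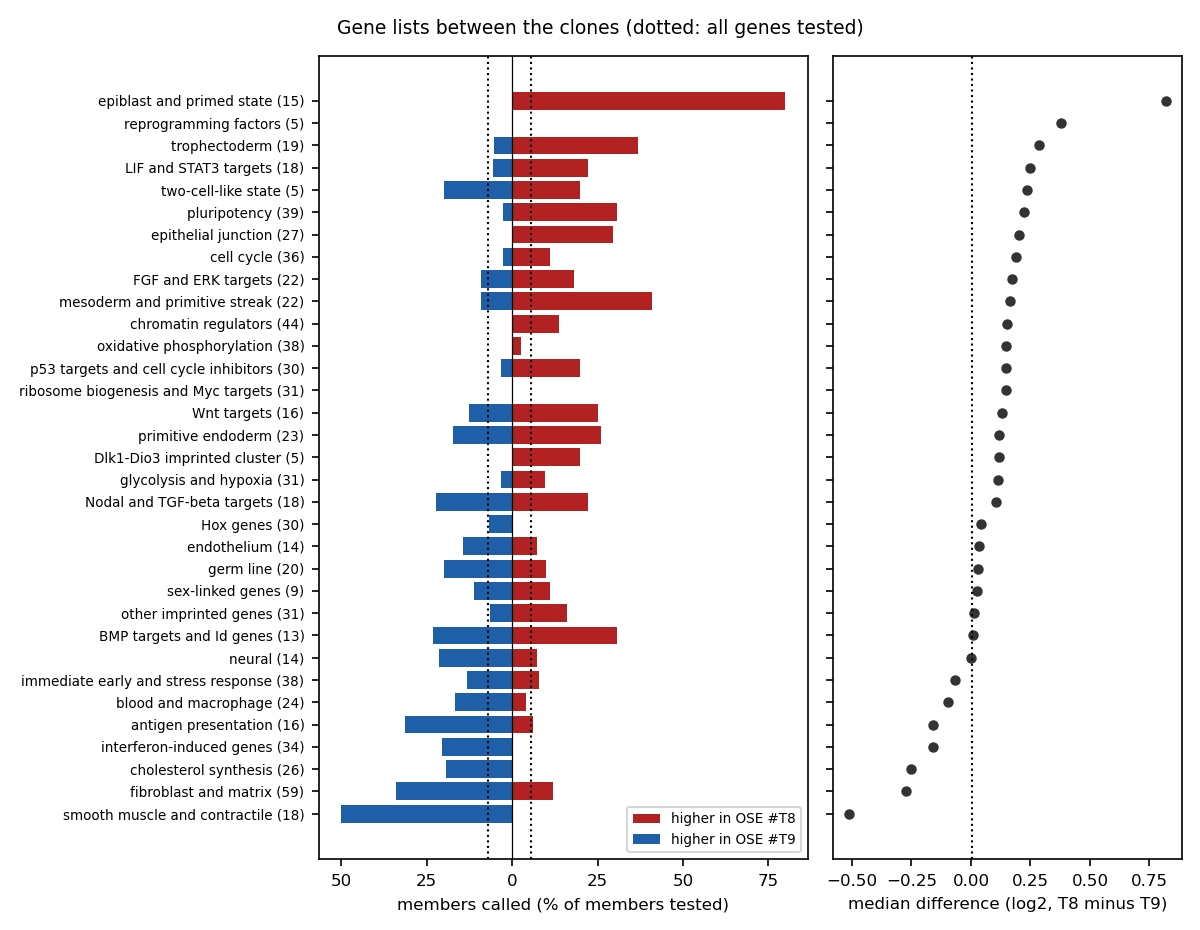
Share of each gene list called in each direction, as a percentage of its members tested (left, number tested in parentheses), and the median log2 difference of its members, OSE #T8 minus OSE #T9 (right). Dotted lines mark all genes tested, at 5.4% and 7.09% called and a median of 0.00539; the epiblast list stands at the top with a median of 0.82 and the contractile list at the bottom with -0.513. Lists share members.

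Genes of the immune response differed in the direction of OSE #T9. Of 16 antigen presentation genes 5 were higher in OSE #T9 and 1 in OSE #T8, 37.5% called against 12.5% of all genes. B2m, the light chain of class I MHC molecules, read 11.60 and 11.37 in OSE #T8 and 12.60 and 12.64 in OSE #T9 (-1.14 ± 0.12, adjusted p = 1.7e-05). H2-D1, a class I heavy chain, differed by -1.04 ± 0.12, with the caution that heavy chain genes are similar to each other. Psmb9, an immunoproteasome subunit, was the exception, at 0.91 ± 0.15. Of 34 interferon-induced genes 7 were higher in OSE #T9 and none in OSE #T8 (20.6% called), with a median of -0.159. Ccl5, a chemokine, and Usp18, a brake on interferon signalling, were at background in OSE #T8 and at least 2.1-fold and 2.08-fold higher in OSE #T9, far below their ES levels of 10.05 and 10.81. Lgals3bp differed by -0.87 ± 0.13 and Oas1g by -0.64 ± 0.11. Irf7, a transcription factor of the interferon response, differed by -0.25 and was not called.

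Of 26 cholesterol synthesis genes 5 were higher in OSE #T9 and none in OSE #T8, with a median of -0.254; Stard4, a sterol carrier, read 8.26 and 8.28 in OSE #T8 and 9.14 and 9.37 in OSE #T9 (-0.98 ± 0.11), and Msmo1, a sterol oxidase, differed by -0.68 ± 0.10. Of 38 respiratory chain genes 1 was called (Ndufa1, 0.38 ± 0.11), a share of 2.63%, and of 31 ribosome biogenesis genes none. Both shares were below that of all genes, although the medians were 0.148 and 0.146. Of 36 cell cycle genes 4 were higher in OSE #T8 (Mcm7, E2f1, Aurka and Cdc6) and 1 in OSE #T9 (Ccnd2), and the share called, 13.9%, was near that of all genes. Of 44 chromatin regulators 6 were higher in OSE #T8 and none in OSE #T9, also a share near that of all genes (13.6%). They include the remodeller Chd7 at 0.81 ± 0.14, the histone demethylase Kdm5b at 0.73 ± 0.13 and Dnmt3l, a cofactor of DNA methylation, at 0.71 ± 0.15. A second Kdm5b probe of like brightness differed by -0.07, and the call was lost when probes were averaged. Of 30 Hox genes 2 were higher in OSE #T9 (Hoxa5 and Hoxa7), a share of 6.67%, below that of all genes. A second Hoxa7 probe differed by -0.09 and was not called.

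The largest single differences lay partly outside these lists. Pttg1, securin, which holds sister chromatids together until anaphase, read 9.21 and 9.15 in OSE #T8 and 6.02 and 5.81 in OSE #T9 (3.26 ± 0.20, 9.60-fold, adjusted p = 1.1e-07). It stood at 9.09 in OSCE #13 and 8.97 in OSCE #8 but at 6.40 in OSCK, so the lines fall on both sides. A probe for the olfactory receptor gene Olfr887 also split the lines, with 9.63 and 9.89 in OSE #T8, 7.07 and 7.01 in OSE #T9, 9.53 in OSCE #13 and 6.95 in ES cells. Erdr1 read 11.18 and 11.23 in OSE #T8 and 8.56 and 8.69 in OSE #T9 (2.58 ± 0.11), and its second probe differed by 3.33. The probe named CLCA4 read 7.2 and 7.68 in OSE #T8 and was at background in OSE #T9, at least 5.58-fold lower. Probes named DEFCR6, DEFCR3, DEFCR-RS2 and DEFCR7, for near-identical intestinal defensin genes whose signals cannot be separated with certainty, were higher in OSE #T8, the first 3 by 2.08 to 2.24 and DEFCR7, at background in OSE #T9, at least 2.29-fold. Spink1, a trypsin inhibitor, Enpp2, the enzyme that makes lysophosphatidic acid, and Il33, a cytokine of the interleukin-1 family, differed by 1.61 to 1.67. Like Krt8, Lefty1 and the streak genes with the largest differences above, these are among the 20 largest.

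Among genes with a name that is not predicted, a clone or a number, Crct1 had the largest difference in favour of OSE #T9, with 6.19 and 5.97 in OSE #T8 and 8.87 and 8.15 in OSE #T9 (-2.43 ± 0.20, adjusted p = 2.5e-06). Foxs1, a forkhead factor of perivascular cells, read 5.86 and 6.02 against 8.39 and 8.14 (-2.32 ± 0.14), and OSE #T8 was again the clone that stood apart, since the other 6 groups lay between 8.13 and 9.07. Col2a1, the collagen of cartilage, read 5.92 and 5.50 against 7.78 and 8.05, and here OSE #T9 stood above ES cells (6.16) and OSCE #13 (6.06). Rspo2, a secreted enhancer of Wnt signalling, differed by -1.98 ± 0.14, Mgll, which breaks down monoacylglycerols, by -2.02 ± 0.12, and Mmp13, a collagenase, by -1.90 ± 0.15. Ankrd1, Rflnb, Tnfrsf11b, Nrp2, Nuak1, Adamts5 and Rgs4 stood at -1.92 to -1.60, and Adgrg6, at background in OSE #T8, was at least 2.99-fold higher in OSE #T9. Xlr3a, of an X-linked multigene family, read 5.11 and 5.31 against 7.25 on both OSE #T9 arrays. Of 34 tested probes that the array file names only by a number, 18 were called. All 18 were higher in OSE #T9, as were 7.09% of all genes tested.

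Probes for introduced sequences differed in opposite directions. The probe for a 5′ retroviral LTR read 5.00 and 5.13 in OSE #T8, above background on 1 array, and 7.12 and 7.37 in OSE #T9 (-2.18 ± 0.12, adjusted p = 4.4e-08). It read 4.32 in ES cells, 4.42 in OSCK, 7.30 in OSCE #13 and 9.43 in OSCE #8. The 3′ LTR probe differed by -1.09 ± 0.23 and was called in 12 of 15 alternative settings. The EGFP probe was bright in both clones, at 12.52 and 12.36 in OSE #T8 and 11.28 and 11.68 in OSE #T9 (0.96 ± 0.16, adjusted p = 0.0013), against 4.34 in ES cells and 13.04 in Actin-GFP MEFs.

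Imprinted and sex-linked genes were checked one by one. In the Dlk1-Dio3 cluster Rian was higher in OSE #T8 by 0.51 ± 0.13, while Dlk1 (0.22), Rtl1 (0.12), Dio3 (-0.37) and the brightest Meg3 probe (-0.06) were not called. The Meg3 probes disagreed, with another at 1.24. A second Dlk1 probe differed by 0.51 (adjusted p = 0.037 in the limma fit per probe), and Dlk1 was called when probes were averaged. Of 31 other imprinted genes 5 were higher in OSE #T8, with Dcn first and Nnat (0.75 ± 0.20) and Snrpn (0.59 ± 0.14) next. In OSE #T9 2 were higher, Grb10 at -0.80 ± 0.14 and Xist at -0.62 ± 0.14. That is 22.6% called, against 12.5% of all genes. Dimmer Nnat probes differed by 0.11 and 0.16, neither called, and the Nnat call was lost when probes were averaged. Other Grb10 probes differed by -0.18 and 0.10, neither called, and averaging the probes lost the call. A fit to the 4 OSE arrays called neither Grb10 nor Xist. Xist read 7.0 and 7.14 in OSE #T8 and 7.53 and 7.85 in OSE #T9, against 7.44 in ES cells. The Y-linked Kdm5d was detected on 1 OSE #T8 array and on no OSE #T9 array, at least 1.15-fold higher in OSE #T8. Eif2s3y, also Y-linked, was at background in both clones, and the X-linked Eif2s3x (0.12), Kdm6a (0.24) and Ddx3x (-0.03) were not called.

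Genes of chromosome 8 were higher in OSE #T9 as a whole. Of its 647 genes tested, 115 (17.8%) were higher in OSE #T9 and 8 (1.24%) in OSE #T8, and 78.7% had a difference below 0. The median of the chromosome was -0.187, while the medians of the 18 other autosomes and the X chromosome ran from -0.000583 to 0.0614. Set against the other autosomes the shift was -0.216, or 1.161-fold, and within the slides it was -0.23 on the first and -0.206 on the second, so it was present on each. This description carries no test.

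The array values show which clone moved. Relative to ES cells, and after subtracting the other autosomes, chromosome 8 stood at 0.212 and 0.216 on the OSE #T9 arrays and at -0.00456 and -0.00842 on the OSE #T8 arrays. All arrays of OSCK, OSCE #8 and OSCE #13 lay between -0.0291 and -0.00672, and the MEF arrays between -0.0456 and -0.0189. Against the OSCE #13 array of the same slide, OSE #T9 stood at 0.236 and 0.219 and OSE #T8 at 0.00477 and 0.0121.

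**Figure D4:**
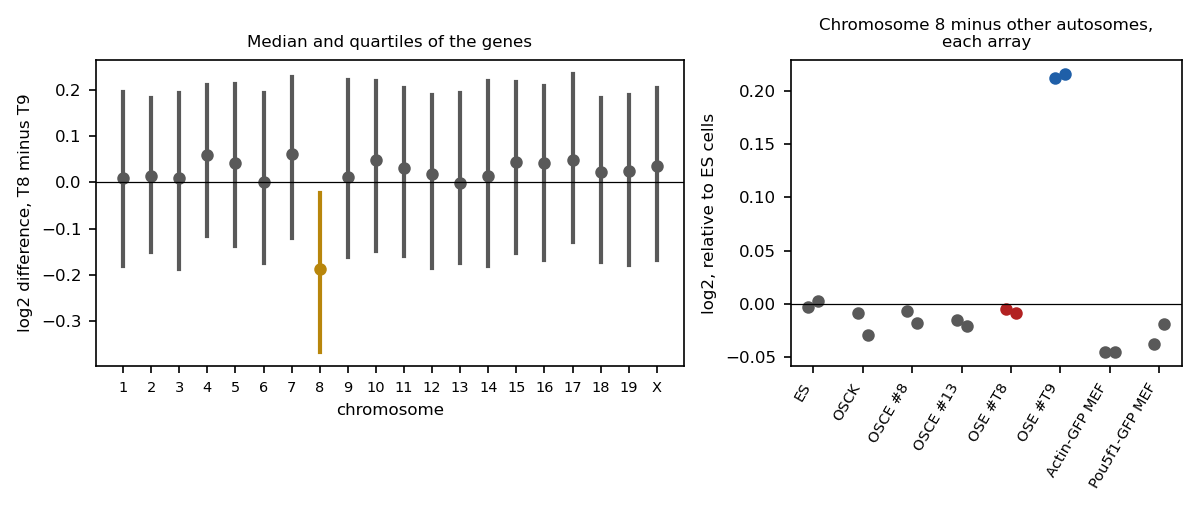
Left, median (point) and quartiles (line) of the log2 difference OSE #T8 minus OSE #T9 over the genes of each chromosome, where chromosome 8 is the one with a median of -0.187. Right, the median of chromosome 8 minus that of the other autosomes on each of the 16 arrays relative to the ES mean (log2); the OSE #T9 arrays stand at 0.212 and 0.216 and every other array below 0.01.

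The shift ran along the whole chromosome. When its genes were put in order and divided into 5 equal parts, the medians were between -0.28 and -0.116, while the 95 such parts of the other chromosomes had medians from -0.0544 to 0.0964. A running median over 51 genes stayed between -0.328 and -0.0879. The shift was smaller for dim genes, at -0.0923 for genes with a mean level under 6, and -0.195, -0.253 and -0.233 for levels of 6 to 8, 8 to 10 and over 10. Named genes on this chromosome included Zfp469, a zinc finger gene whose mutation in humans causes brittle cornea, at -1.57 ± 0.12. A second, dimmer Zfp469 probe differed by 0.07 and was not called. The basement membrane collagen Col4a1 stood at -0.82 ± 0.12, the plasminogen activator Plat at -0.73 ± 0.11 and Msmo1 at -0.68 ± 0.10. The metallothionein Mt2 stood at -0.56 ± 0.16 and the chaperone cofactor Dnajb1 at -0.50 ± 0.11. Zfp469, Col4a1, Plat and Msmo1 were also higher in MEFs than in ES cells, by 1.74 to 2.32, while Mt2 was lower. Genes called higher in OSE #T8 included the defensin genes Defa31 (1.109) and Defa24 (0.9157). The DEFCR probes above kept their array names, were assigned no chromosome and are not counted here. Gain of chromosome 8 is a known change of mouse ES cells in culture. Chromosome number was not measured in the data used here, and its part in this shift was not tested.

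**Figure D5:**
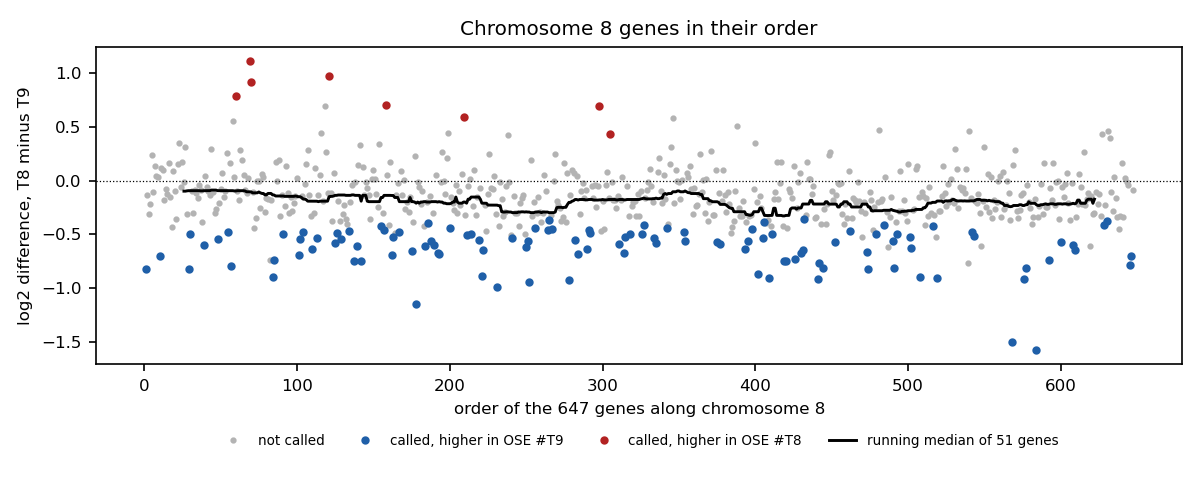
Log2 difference OSE #T8 minus OSE #T9 of the 647 chromosome 8 genes in their order along the chromosome, with genes called higher in OSE #T9 (115) or OSE #T8 (8) in colour and a running median over 51 genes as a line. The line stays between -0.328 and -0.0879 along the whole chromosome.

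Compared with the other pluripotent groups, neither clone was the outlying one throughout. Among the 844 genes called higher in OSE #T8, OSE #T8 had the highest mean of the 6 groups in 417 and OSE #T9 the lowest in 336. Among the 1109 called higher in OSE #T9, OSE #T9 was highest in 648 and OSE #T8 lowest in 565. A gene can be counted under both. Over all genes tested, OSE #T8 was highest in 16.7% and lowest in 17.3%, and OSE #T9 in 17% and 16.4%. Choosing genes by the difference between these clones raises the counts by itself, so they only describe positions. Among the called genes, 71 were above background on both OSE #T8 arrays and on no OSE #T9 array, and 92 the other way round.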

How the data were processed

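Per the file headers, the authors exported the raw table with BeadStudio 3.2.6, with both its normalization and its error model set to none. Its deposited values are the signal intensity of each probe, a detection score (a fraction, read as 1 minus the detection p) and the number of beads. The authors' deposited series matrix holds normalized signal intensity. The method is not given in the sources used here and the probe identifiers do not match those of the raw table, so it served only for counts of probes.

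Background was removed with limma's nec function (limma 3.58.1, R 4.3.3; detection p, offset of 16), and the intensities were quantile normalized over the 16 arrays and put on log2. Names on the array were brought to current symbols with the RefSeq table (GRCm38.p6): 16079 by symbol and 6654 by synonym, with 11592 kept. For the 9099 genes with several probes the brightest on average stood for the gene, and a gene was kept if detected on at least 2 arrays, which left 15642 of 32089 genes. One limma fit with a mean per group gave 8 residual and 6.27 prior degrees of freedom. The number of arrays limits the precision. Of 200 simulated 2-fold changes between these clones the fit called 92%. It called 55% of 200 changes of 1.5-fold and 0.131% of unchanged genes. The simulated noise was independent, with a spread per gene shared by all groups, so these shares do not give the rate of false calls in the data. Replicates of OSE #T9 had a median absolute difference of 0.2114, against 0.1487 in OSE #T8.

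The members and gene lists were chosen with earlier results of these data known. Named genes are the 20 largest called differences in each direction whose arrays do not overlap, without predicted, clone or numbered names, up to 5 called members of each list, all reprogramming factors, Nanog, Dlk1-Dio3 and sex-linked genes, and the EGFP and LTR probes. Other members are named to complete a count, as defining markers, or after their values were seen. Numbers of all lists are drawn in the plot of gene lists. Slides were read from the array names: of the 4 slides, the first arrays of both clones share 1 and the second arrays another, while some other groups lie on the remaining 2. Deviations of same-numbered arrays correlated at 0.1698 across genes, in 1 pair of groups, and a slide block is given as an alternative. Other alternatives were fewer arrays, other normalizations and filters, probe averaging, array weights and leaving out each array. A few of the genes that the rule names are not reported here.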

Additional observations from a re-analysis of the deposited data

How the results depend on the processing

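Of 152 named genes that were called, 79 were called in every alternative that tested them, including the 20 largest in each direction, and 73 lost the call in at least 1. The number of genes called (1953) fell to 508 in a fit to the 4 OSE arrays, with 228 higher in OSE #T8 and 280 in OSE #T9, and to 548 (243 and 305) with quantile normalization over these arrays. It was 810 (362 and 448) with the 6 arrays of the same slides, 1036 (499 and 537) with median scaling and 937 (398 and 539) with array weights. The fits to 4 and 6 arrays have fewer samples; for the others the cause was not tested. Leaving out 1 array gave 961 to 2668 genes, 422 to 1263 higher in OSE #T8, 539 to 1405 in OSE #T9 and 251 to 392 at 2-fold; the fit then assumes that the lone array varies like the other groups. With a replicate block 2878 genes were called, 1351 higher in OSE #T8 and 1527 in OSE #T9, and with a slide block 2868, 1337 of them higher in OSE #T8; all 1953 were among them in both fits. Genes with at least 2-fold numbered 125 without background correction and 128 probes in the authors' table, which had 1514 probes higher in OSE #T8. The chromosome 8 shift of -0.216 was -0.163 without background correction, -0.194 with median scaling, -0.0974 without the filter, which adds undetected genes, and -0.245 for genes detected on all 4 OSE arrays, and ran from -0.238 to -0.207 when 1 array was left out.

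Sign changes were seen in 2 called genes, when probes that disagree were averaged: Notum (0.0194) and Jak1 (-0.114). Genes that were not called also turned, and the cause was not tested. With median scaling and with averaged probes Ddx3x stood at 0.0561 and 0.124, Nanog at 0.0326 and 0.0934 and Meg3 at 0.0445 and 0.496. Leaving out 1 array gave -0.329 to 0.266 for Ddx3x, -0.292 to 0.0490 for Nanog, -0.415 to 0.292 for Meg3, -0.000646 to 0.444 for Dlk1, -0.0727 to 0.304 for Rtl1, -0.0153 to 0.0641 for Eif2s3y, -0.0143 to 0.260 for Eif2s3x, -0.215 to 0.458 for Myc, -0.148 to 0.209 for Tsix and -0.388 to 0.357 for Uty.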

Other observations

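Over all genes 12.5% were called, and further gene groups are set against that share. Of 30 p53 targets and cell cycle inhibitors, 6 were higher in OSE #T8, led by Pmaip1, which promotes apoptosis, at 0.59, and 1 in OSE #T9, Ccng1, at -0.48 (23.3% called). Of 38 genes of the immediate early and stress response, 3 were higher in OSE #T8, with Cth, an enzyme of cysteine synthesis, at 0.90, and 5 in OSE #T9 (21.1%). Of 31 glycolysis and hypoxia genes, 3 were higher in OSE #T8 (Pfkl 0.70, Slc2a1 0.63 and Ndrg1 0.56) and Hk1 was higher in OSE #T9 (-0.43), 12.9% called, which is near the share of all genes.

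Of 14 neural genes, Crabp1, a retinoic acid binding protein, read 8.92 and 9.04 in OSE #T8 and 7.87 and 7.97 in OSE #T9, while Nes, Ncam1 and Zic1 were higher in OSE #T9 at -0.96, -0.92 and -0.44. Of 20 germ line genes, 2 were higher in OSE #T8 (Zp3 and Kit) and 4 in OSE #T9 (Tex14, Piwil2, Rhox6 and Rhox9). Of 14 endothelial genes, Tek, at background in OSE #T9, was at least 1.57-fold higher in OSE #T8, a call lost in 7 of 15 alternative settings, and Esam and Robo4 in OSE #T9 (-0.51 and -0.50), and the summed signal of the list was 1837.6 and 1766.5 in OSE #T8 and 1877.6 and 1596.6 in OSE #T9. Of 5 genes of the two-cell-like state that were tested, Zscan5b was higher in OSE #T8 (0.52) and Tcstv3 in OSE #T9 (-0.59). The neural, germ line, endothelial and two-cell lists had 28.6%, 30%, 21.4% and 40% of members called, against 12.5% of all genes. The medians of these lists changed sign in some alternative settings.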
